A study of Homo sapiens with 6 samples.

Results

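The genes described here are 10 members of the pathway through which stressed cells slow protein synthesis and switch on the transcription factor ATF4. They are 3 kinases of the initiation factor eIF2 (EIF2AK1, EIF2AK3 and EIF2AK4), 5 transcription factors (ATF4, ATF3, ATF5, DDIT3 and CEBPB) and 2 feedback genes (TRIB3 and PPP1R15A). They were taken by gene name from a table of 20532 genes, and all 10 passed the filter on low counts. The RNA-seq libraries, made after mRNA enrichment, came from ACHN, a human renal carcinoma line given in the labels as clear cell. Lentiviral transduction had given a control hairpin to the cells of 3 libraries (shCtrl 1, 2 and 3) and a hairpin against the co-chaperone gene DNAJC2 to those of the other 3 (shDNAJC2 1, 2 and 3). The submitters describe a stable line for each hairpin, with 3 biological replicates of each. The sources used here do not say how many hairpins were used or whether replicates were transduced separately, so p-values measure the spread between these libraries.

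In this pathway, known as the integrated stress response, each kinase senses a different disturbance and phosphorylates the alpha subunit of eIF2. Phosphorylated eIF2 blocks its own exchange factor, eIF2B, which lowers translation in general while the ATF4 and ATF5 mRNAs, with upstream reading frames in their leaders, are translated more. ATF4 protein then activates genes for amino acid supply, the further transcription factors ATF3 and DDIT3, and PPP1R15A, which directs a phosphatase to eIF2 and so ends the response. Since translation sets much of ATF4 and ATF5 activity, mRNA levels show only part of the pathway.

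The 3 kinase mRNAs differed little among the 6 libraries. ATF4, ATF3, DDIT3, TRIB3 and PPP1R15A were low in shCtrl 1 and shCtrl 2 and higher in shCtrl 3 and in the knockdown libraries, so that the groups overlapped. ATF5 went the other way and was below all controls in every knockdown library. ATF3 and PPP1R15A were much lower in shDNAJC2 3 than in the other knockdown libraries, although ATF4 mRNA was high there too.

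The following 3 stretches before a start site show DNA elements that factors of this pathway are known to bind, with the element in capitals. All are GRCh38.p14 sequence from RefSeq, 250 bases long, read 5′ to 3′ along the gene's strand. The PPP1R15A stretch (chr19:48872171-48872420, plus strand) holds the cyclic AMP response element, which ATF and CREB factors bind. The DDIT3 stretch (chr12:57520515-57520764, minus strand) holds an AP-1 element. The stretch of ASNS (chr7:97872409-97872658, minus strand), the asparagine synthetase gene, is no member's and is shown because it holds the element through which ATF4 is known to act.
PPP1R15A: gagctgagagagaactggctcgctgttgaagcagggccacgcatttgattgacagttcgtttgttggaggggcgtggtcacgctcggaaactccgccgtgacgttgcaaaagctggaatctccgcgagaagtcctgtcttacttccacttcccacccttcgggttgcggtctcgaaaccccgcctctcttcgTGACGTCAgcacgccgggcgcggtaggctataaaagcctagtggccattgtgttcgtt
DDIT3: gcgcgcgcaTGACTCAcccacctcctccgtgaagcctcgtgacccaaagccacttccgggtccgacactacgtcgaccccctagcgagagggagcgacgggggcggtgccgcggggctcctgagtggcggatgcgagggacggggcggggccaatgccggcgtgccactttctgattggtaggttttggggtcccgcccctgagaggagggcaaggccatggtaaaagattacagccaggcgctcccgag
ASNS: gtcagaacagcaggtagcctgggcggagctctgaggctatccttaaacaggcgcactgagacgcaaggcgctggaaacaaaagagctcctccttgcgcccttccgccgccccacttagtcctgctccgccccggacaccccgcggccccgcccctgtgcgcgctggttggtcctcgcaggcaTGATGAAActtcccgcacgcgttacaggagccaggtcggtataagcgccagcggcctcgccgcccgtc

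The same 250-base windows were searched on both strands at the 17 RefSeq start sites of the 9 members that matched by symbol, which left EIF2AK1 out. The letters searched were TGATGNAA for the composite C/EBP-ATF element, TGACGTCA for the cyclic AMP response element, TGACTCA for the AP-1 element and TTGCNNAA for the C/EBP element, and no matches overlapped. Of the 17 windows 6 held at least 1 match. The share of all windows with a match to any of these elements was not computed, and windows of the same gene may overlap. PPP1R15A held the cyclic AMP response element 58 bases before its start and a C/EBP element at 147, and both DDIT3 starts held the AP-1 element, 241 and 238 bases before them. One ATF3 start held the composite element at 191, one ATF5 start the AP-1 element at 188 and a C/EBP element at 104, and EIF2AK3 a C/EBP element at 25. No match lay in the windows of ATF4, CEBPB, TRIB3 or EIF2AK4. Over all 35116 start sites in the RefSeq table, 3.14% of windows held the composite element, 1.65% the cyclic AMP response element, 4.2% the AP-1 element and 9.05% the C/EBP element. These matches describe letters and no binding was measured.

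Total counts ranged from 17491462 to 25760291 per library, and the lowest count of any member was 215 (ATF3 in shCtrl 1, 95% Poisson interval 187 to 246, counting error only). DNAJC2 was at 76.7, 69.8 and 86.5 CPM (TMM-normalized counts scaled to a common library size) for shCtrl 1, 2 and 3. The values in shDNAJC2 1, 2 and 3 were 51.2, 50.4 and 38.5 CPM, each below every control. The log2 fold change was −0.74 (edgeR unadjusted p 0.0018, adjusted p = 0.429), and DESeq2 called DNAJC2 lower (adjusted p = 0.0364). Of 10 markers of a renal carcinoma line, 5 reached 1 CPM in every library, and PAX2 and CDH16 stayed under 1 CPM in all 6. The fibroblast markers, which carcinoma lines with mesenchymal traits can also express, all reached 1 CPM, 7 of 7, and their summed level was 1406 to 4165 CPM with the control hairpin and 1259 to 1839 CPM under knockdown. The lowest control value of that sum was in shCtrl 3, and whether it bears on the members was not tested. Most of the sum in each library came from COL1A1 and COL1A2. COL1A1 was at 2796, 2785 and 695 CPM in shCtrl 1, 2 and 3. THY1 alone of these markers was higher in shCtrl 3 than in the other controls, at 177, 187 and 290 CPM. Among blood and immune markers CD68, a lysosomal protein gene that macrophages express strongly, was at 71.0 to 92.3 CPM in all libraries and CD14 at 0.697 to 1.97 CPM, while PTPRC, CD3E and LYZ stayed under 1 CPM. Of the 4 endothelial markers PECAM1 reached 3.86 CPM and KDR 3.01 CPM, and CDH5 and VWF stayed under 1 CPM in every library.

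Of 13988 genes tested, edgeR's quasi-likelihood test called 0 higher (0%) and 0 lower (0%) in the knockdown at an adjusted p under 0.05, and accordingly none of the 10 members. At an unadjusted p under 0.05, 559 genes were higher (4%) and 1026 lower (7.33%), among them 0 and 1 of the members. The groups did not overlap for 1025 genes that were higher (7.33%) and 1179 that were lower (8.43%), among them again 0 and 1 of the members, ATF5 in both counts. The median log2 fold change was 0.30 over the members and −0.02 over all genes tested. DESeq2 called 35 genes (0.25%) and no member, though it gave no p for ATF3. Without shCtrl 3, edgeR called 2532 of 14201 genes higher (17.8%) and 2413 lower (17%), and of the 10 members 6 rose and 1 fell. That library is known from earlier results of these data to stand apart, so its omission describes 2 control libraries against 3 and is no independent test.

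EIF2AK1 (ENSG00000086232, chromosome 7, 6022244 to 6059230, GRCh38) encodes HRI, the kinase that responds to haem shortage and to signals from stressed mitochondria. Levels of 163, 173 and 140 CPM were measured with the control hairpin (shCtrl 1, 2 and 3, in this order throughout), and of 166, 161 and 164 CPM with the hairpin against DNAJC2 (shDNAJC2 1, 2 and 3). Its lowest value was in shCtrl 3, and the 3 knockdown values lay within the control range. Its log2 fold change was 0.04 (standard error 0.11, edgeR adjusted p = 0.852).

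EIF2AK3 (ENSG00000172071, chromosome 2, 88556741 to 88627576) encodes PERK, the kinase of the endoplasmic reticulum. It was at 19.6, 19.3 and 18.6 CPM with the control hairpin against 21.0, 18.7 and 17.6 CPM under knockdown. The highest and the lowest value were both in knockdown libraries. On the log2 scale the difference was −0.0038 with a 95% interval of −0.29 to 0.28 (edgeR adjusted p = 0.989), and its sign turned under other settings.

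EIF2AK4 (ENSG00000128829, chromosome 15, 39934146 to 40035591) encodes GCN2, the kinase that senses uncharged tRNA. It was at 90.5, 95.9 and 105 CPM with the control hairpin against 110, 108 and 95.7 CPM under knockdown. Levels were highest in shDNAJC2 1 and 2, with shCtrl 3 next, and the groups overlapped. The fitted log2 difference was 0.10 with a 95% interval of −0.15 to 0.36 (edgeR adjusted p = 0.63). Per kilobase of the longest annotated transcript, which need not be the one expressed, levels were 31.4 to 38.8 CPM for EIF2AK1, 16.5 to 20.0 for EIF2AK4 and 3.79 to 4.53 for EIF2AK3. This order was the same in all 6 libraries, without overlap between the kinases. Without shCtrl 3 none of the 3 passed either (edgeR adjusted p 0.788 for EIF2AK1, 0.908 for EIF2AK3 and 0.218 for EIF2AK4).

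The remaining eIF2 kinase gene, EIF2AK2, encodes PKR, which responds to double-stranded RNA and is itself an interferon-stimulated gene. It was at 198, 212 and 57.8 CPM with the control hairpin against 81.8, 69.0 and 113 CPM under knockdown, so that shCtrl 3 was the lowest of the 6 libraries. Its log2 fold change was −0.82 (standard error 0.47, edgeR adjusted p = 0.452), and without shCtrl 3 EIF2AK2 fell by 1.21 (adjusted p = 0.00167).

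ATF4 (ENSG00000128272, chromosome 22, 39519695 to 39522685), the central transcription factor of the pathway, had levels of 259, 275 and 1082 CPM with the control hairpin. With the hairpin against DNAJC2 its levels were 952, 1032 and 712 CPM. The highest value of all was in a control library, shCtrl 3, and the next 3 were the knockdown libraries. Means were 538 ± 471 and 899 ± 167 CPM (SD, n = 3 each), and the controls spanned 4.18-fold against 1.45-fold within the knockdown. The log2 fold change was 0.74 with a 95% interval of −0.60 to 2.08 (edgeR adjusted p = 0.53; two-sided exact permutation p = 0.4, where 3 libraries against 3 allow no less than 0.1). Without shCtrl 3 ATF4 rose by 1.76 with a standard error of 0.17, a 3.38-fold difference (adjusted p = 2.8e-04). Per kilobase of transcript ATF4 was at 128 to 536 CPM, above each kinase in every library. In bulk RNA, fewer cells with a high level and less RNA per cell cannot be told apart, and this holds for every member. GENCODE 29 names 4 ATF4 pseudogenes, whose reads the deposited counting may have shared with ATF4.

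**Figure D1:**
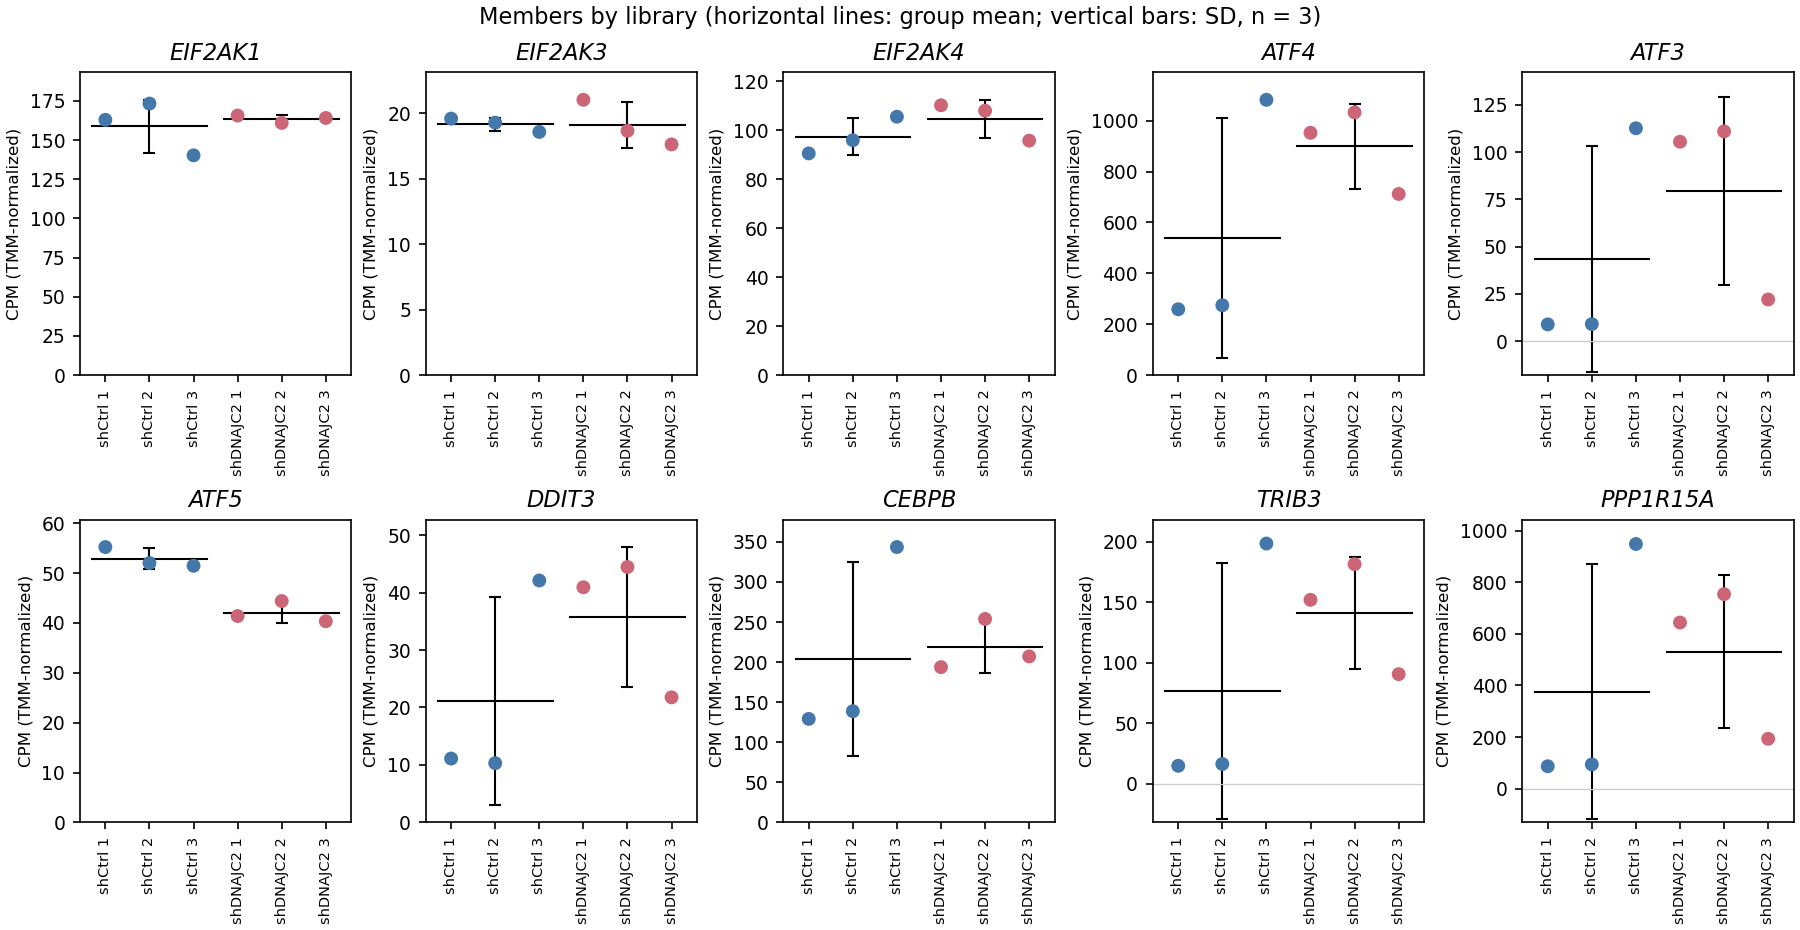
Level of each of the 10 members in CPM (TMM-normalized) in the 3 shCtrl (blue) and 3 shDNAJC2 (red) libraries, with the group mean as a horizontal line and the SD as a vertical bar (n = 3 each). ATF4 in shCtrl 3, at 1082 CPM, is above all knockdown libraries, while the ATF5 groups are separate and each of the 3 kinases varies little between libraries.

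ATF5 (ENSG00000169136, chromosome 19, 49928702 to 49933935), a relative of ATF4 that is known for its part in the mitochondrial stress response, was at 55.2, 52.0 and 51.5 CPM in the controls. It was at 41.4, 44.4 and 40.3 CPM in the knockdown libraries. Each knockdown value lay below each control value, and here shCtrl 3 stood with the other controls. Means were 52.9 ± 2.03 and 42.0 ± 2.10 CPM (SD, n = 3 each), a ratio of 0.795. On the log2 scale the difference was −0.33 with a 95% interval of −0.56 to −0.10, an unadjusted p of 0.0111 and an adjusted p of 0.429 (edgeR), and the exact permutation p was 0.1, the smallest possible. Without shCtrl 3 ATF5 fell by 0.35 (edgeR adjusted p = 0.0279), nearly the same size as with it.

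The ATF5 locus overlaps IL4I1 and NUP62 on the other strand in GENCODE 29, and no strand setting is given, so reads of these genes may be counted together. The longest ATF5 transcript is 60.0% G and C, against a median of 48.5% over the genes tested. The median log2 fold change of all tested genes was 0.15 in the fifth with the lowest GC content and −0.22 in the fifth with the highest, to which ATF5 belongs (from 58.3%). The part of GC content in the ATF5 difference was not tested.

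ATF3 (ENSG00000162772, chromosome 1, 212565334 to 212620777), a factor that ATF4 and other stress signals induce, was at 8.81, 8.97 and 113 CPM in the controls. It was at 105, 111 and 22 CPM in the knockdown. The libraries fell at 3 heights, with shCtrl 1 and 2 lowest, shDNAJC2 3 above them, and shCtrl 3 with shDNAJC2 1 and 2 highest. The controls spanned 12.8-fold and the knockdown libraries 5.04-fold. The fitted log2 difference was 0.87 with a 95% interval of −1.71 to 3.45 (edgeR adjusted p = 0.687). Without shCtrl 3 ATF3 rose by 3.16 with a standard error of 0.61 (adjusted p = 0.00555).

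DDIT3 (ENSG00000175197, chromosome 12, 57516588 to 57521737) encodes CHOP, a C/EBP-type partner of ATF4 that promotes cell death in lasting stress. It was at 11.1, 10.3 and 42.1 CPM with the control hairpin against 40.9, 44.4 and 21.8 CPM under knockdown. As with ATF3, shDNAJC2 3 lay between shCtrl 1 and 2 and the remaining 3 libraries. The log2 fold change was 0.75 with a 95% interval of −0.64 to 2.14 (edgeR adjusted p = 0.535), and without shCtrl 3 DDIT3 rose by 1.74 (adjusted p = 0.00248). DDIT3 overlaps the methionyl-tRNA synthetase gene MARS1 on the other strand (named MARS in GENCODE 29), and MARS1 was much the more abundant, at 186 to 765 CPM, so a share of the DDIT3 counts may belong to it. MARS1 was also 1 of the 4 genes nearest in pattern to ATF4.

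CEBPB (ENSG00000172216, chromosome 20, 50190734 to 50192689), another C/EBP partner of ATF4, was at 129, 139 and 344 CPM with the control hairpin against 194, 254 and 207 CPM under knockdown. shCtrl 3 stood above all other libraries, and the 3 knockdown libraries lay between it and the other controls. The group means differed by little, 204 ± 121 and 218 ± 31.6 CPM (SD, n = 3 each). On the log2 scale the difference was 0.10 with a 95% interval of −0.81 to 1.01 (edgeR adjusted p = 0.905). Without shCtrl 3 CEBPB rose by 0.71 (adjusted p = 0.00465), and without shCtrl 1 or shCtrl 2 its value turned to −0.13 and −0.10, and without shDNAJC2 2 to −0.02. CEBPB-AS1 overlaps it on the other strand.

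TRIB3 (ENSG00000101255, chromosome 20, 362835 to 397559) encodes a pseudokinase that binds ATF4 and DDIT3 and restrains them. It was at 14.9, 16.4 and 198 CPM with the control hairpin against 152, 181 and 90.6 CPM under knockdown. Again shCtrl 3 was highest, and shDNAJC2 3 was the lowest of the knockdown libraries but still far above shCtrl 1 and 2. The controls spanned 13.3-fold, more than for any other member. The fitted log2 difference was 0.88 with a 95% interval of −1.45 to 3.22 (edgeR adjusted p = 0.652), and without shCtrl 3 TRIB3 rose by 3.17 with a standard error of 0.28 (adjusted p = 1.9e-04), with ATF3 the largest rise of the members in that fit.

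PPP1R15A (ENSG00000087074, chromosome 19, 48872392 to 48876057) encodes GADD34, the inducible partner of the phosphatase that removes phosphate from eIF2. It was at 87.2, 94.4 and 948 CPM with the control hairpin against 644, 754 and 194 CPM under knockdown. The value in shDNAJC2 3 was closer to shCtrl 1 and 2 than to the other knockdown libraries. The log2 fold change was 0.49 with a 95% interval of −1.86 to 2.85 (edgeR adjusted p = 0.806), and without shCtrl 3 PPP1R15A rose by 2.55 with a standard error of 0.49 (adjusted p = 0.0052). The value was near 0 without shCtrl 1 (0.036) or shCtrl 2 (0.045), and 0.15 without shDNAJC2 2. Its constitutive counterpart PPP1R15B was at 51.9, 58.0 and 95.5 CPM with the control hairpin against 107, 97.4 and 79.5 CPM under knockdown, a smaller spread (log2 fold change 0.47, edgeR adjusted p = 0.437). Without shCtrl 3 PPP1R15B rose by 0.79 (adjusted p = 0.00356).

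**Figure D2:**
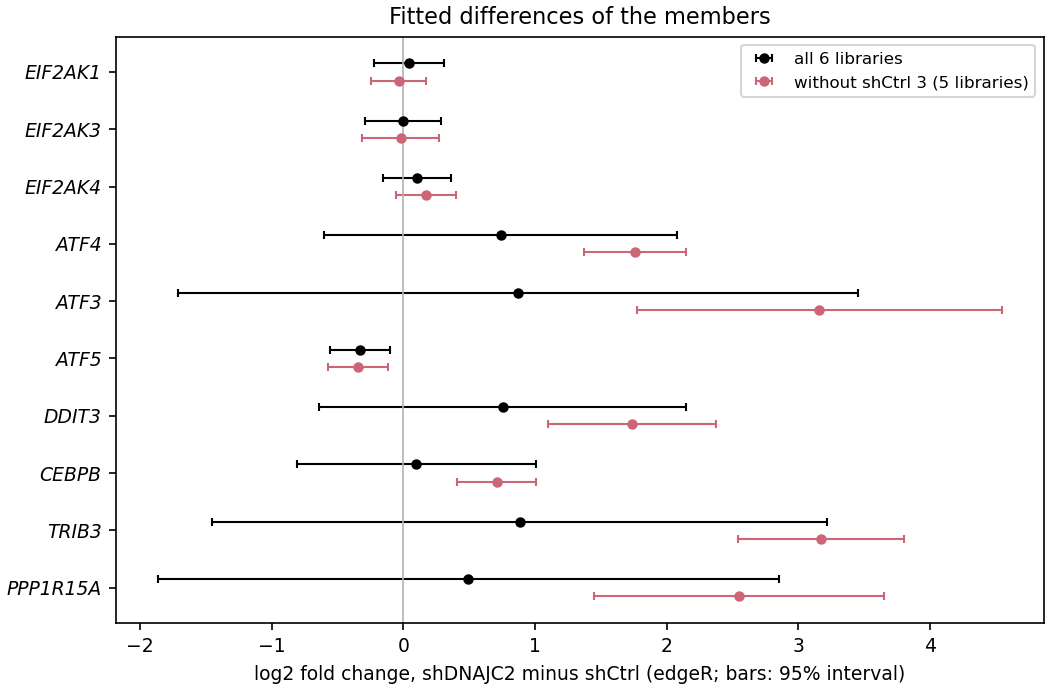
Log2 fold change of shDNAJC2 against shCtrl for each member (edgeR, with 95% intervals) over all 6 libraries (black) and without shCtrl 3 (red). Over all 6 libraries the interval of ATF5 alone among the members leaves out 0, and without shCtrl 3 ATF4, ATF3, DDIT3, CEBPB, TRIB3 and PPP1R15A lie above 0 and ATF5 below.

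Omission of either of the other controls moved these values the opposite way. Without shCtrl 1 the log2 fold changes were 0.42 for ATF4, 0.40 for ATF3, 0.46 for DDIT3 and 0.41 for TRIB3, and without shCtrl 2 they were 0.43, 0.40, 0.43 and 0.42. None of these 4 genes or PPP1R15A passed the test in either fit (edgeR adjusted p from 0.885 to 0.994). With all 6 libraries limma-voom gave larger values, 1.06 for ATF4, 1.60 for ATF3, 1.91 for TRIB3 and 1.22 for PPP1R15A, and likewise called none of them.

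In 5 of the 10 members, ATF4, ATF3, CEBPB, TRIB3 and PPP1R15A, shCtrl 3 was above every other library and over 2-fold above both shCtrl 1 and shCtrl 2. Of all genes tested 539 did so (3.85%), a comparison chosen after these values had been seen and given with no test. DDIT3 missed it because shDNAJC2 2 was slightly higher than shCtrl 3.

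The members' levels relative to ATF4 in the same library set shDNAJC2 3 apart within the knockdown. Per 100 ATF4 reads, ATF3 had 3.41, 3.27 and 10.4 reads with the control hairpin against 11.1, 10.7 and 3.09 under knockdown. PPP1R15A had 33.7, 34.4 and 87.6 reads with the control hairpin against 67.6, 73.0 and 27.2 under knockdown. For both genes shDNAJC2 3 lay slightly below shCtrl 1 and 2, although its ATF4 level, 712 CPM, was far above theirs. TRIB3 kept most of its height there, with 5.76, 5.98 and 18.3 reads with the control hairpin against 16.0, 17.6 and 12.7 under knockdown. DDIT3 followed ATF4 most closely, with 4.29, 3.76 and 3.89 reads with the control hairpin against 4.30, 4.31 and 3.06 under knockdown. The DDIT3 counts may hold reads of the overlapping MARS1, whose pattern was near to that of ATF4, and their share was not tested. CEBPB had fewest reads per 100 of ATF4 in the knockdown (20.3, 24.6 and 29.1), against 49.9, 50.5 and 31.8 in the controls. These ratios were set side by side after the levels had been seen, and shDNAJC2 3 is 1 library, so no test was made.

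**Figure D3:**
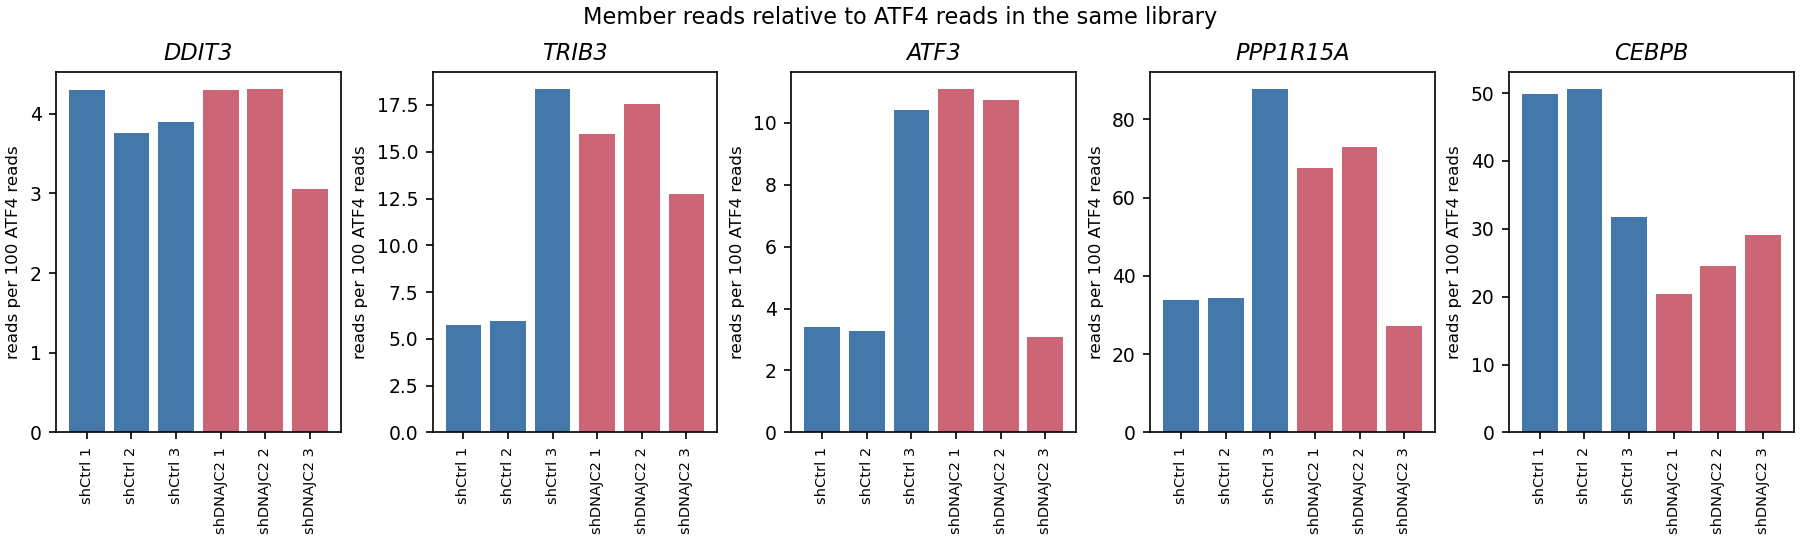
Reads of DDIT3, TRIB3, ATF3, PPP1R15A and CEBPB per 100 ATF4 reads in each library (blue shCtrl, red shDNAJC2, 1 bar per library). ATF3 and PPP1R15A in shDNAJC2 3, at 3.09 and 27.2, stand beside shCtrl 1 and 2, whereas DDIT3 varies between 3.06 and 4.31 in all libraries.

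Likeness of pattern was measured as the root mean square difference in log2 CPM over the 6 libraries, after each gene was centred on its own mean, among genes with a mean of at least 5 CPM. Of the members DDIT3 was nearest to ATF4, at 0.18, followed by CEBPB at 0.49, and ATF3 and PPP1R15A were nearest to each other, at 0.28. The genes nearest to ATF4 were YARS1 (0.038), SHMT2 (0.038), MARS1 (0.044), which overlaps DDIT3, and INSYN2B (0.063). YARS1 and MARS1 encode the tyrosyl- and methionyl-tRNA synthetases and SHMT2 the mitochondrial serine hydroxymethyltransferase. YARS1, for example, was at 141, 147 and 556 CPM with the control hairpin against 522, 528 and 378 CPM under knockdown, which follows ATF4 library by library. Nearest to DDIT3 were STX3 (0.11), ERN1 (0.11), SLC19A2 (0.12) and PMAIP1 (0.13). ERN1 encodes the endoplasmic reticulum sensor IRE1 and PMAIP1 the cell death protein NOXA. EIF2AK3 was nearest to FXR1, SPRYD7, GTF2E2 and TFCP2 (0.019 to 0.025), all of which differed little between libraries, and CEBPB to PRCD, AXIN1, NSMF and CTU1 (0.071 to 0.087).

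Around the kinases, 28 genes for eIF2, eIF2B, the eIF2 phosphatases and kinase regulators were all tested. edgeR called none, and the median log2 fold change was −0.0034 against −0.02 over all genes. At an unadjusted p under 0.05, 3 were higher and 0 lower, beside 4% and 7.33% of all genes. Without shCtrl 3, 5 of the 28 rose and 3 fell, beside 17.8% and 17% of all genes, so the share that rose was near the background. EIF2S2, the beta subunit of eIF2, was at 170, 160 and 312 CPM with the control hairpin against 384, 340 and 317 CPM under knockdown, with the groups just apart. The difference was 0.70 on the log2 scale (standard error 0.27, edgeR adjusted p = 0.429), and it rose by 1.08 without shCtrl 3 (adjusted p = 4.8e-04). EIF2S3, the gamma subunit, was at 145, 143 and 179 CPM with the control hairpin against 225, 205 and 183 CPM under knockdown, also without overlap. EIF2S1, the alpha subunit that the kinases phosphorylate, was at 123, 125 and 168 CPM with the control hairpin against 216, 190 and 143 CPM under knockdown, with overlap. Among the other genes, EIF2A, an initiation factor distinct from eIF2, had a log2 fold change of 0.29 (unadjusted p 0.04997). DNAJC3, an inhibitor of the kinases PKR and PERK, had one of 0.26 (unadjusted p 0.0637). The 5 eIF2B subunit genes went both ways, with log2 fold changes from −0.21 for EIF2B1 to 0.20 for EIF2B3, and none passed the test. Of the 28 genes, the groups did not overlap for 4 that were higher and 4 that were lower. Over all genes tested the shares were 7.33% and 8.43%. EIF2B4 and EIF2B5 were among the lower.

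Of 25 other ATF, CREB and C/EBP factors and tribbles genes 21 were tested, the remainder being CREB3L3, BATF, CEBPA and CEBPE at no more than 0.419 CPM. edgeR called none, and the median was 0.11. At an unadjusted p under 0.05, 0 were higher and 3 lower, beside 4% and 7.33% of all genes. The groups did not overlap for 1 that was higher and 1 that was lower, beside 7.33% and 8.43% of all genes. Without shCtrl 3, 9 of the 21 rose and 4 fell, beside 17.8% and 17% of all genes, so the share that fell was near the background. CREB3L1, a membrane-bound factor of the secretory pathway, was at 144, 152 and 122 CPM with the control hairpin against 86.9, 101 and 87.0 CPM under knockdown, without overlap. The difference was −0.60 on the log2 scale (standard error 0.12, edgeR unadjusted p 0.0019, adjusted p = 0.429), and DESeq2 called it lower (adjusted p = 0.0357). CEBPD was at 52.9, 65.3 and 21.6 CPM with the control hairpin against 15.7, 15.8 and 26.8 CPM under knockdown, opposite to CEBPB in shCtrl 3. BATF2, an interferon-induced factor, was at 6.19, 7.29 and 1.84 CPM and at 1.67, 1.14 and 2.55 CPM.

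CEBPG, which dimerizes with ATF4, followed it, at 26.1, 28.1 and 113 CPM with the control hairpin against 124, 115 and 77.5 CPM under knockdown (log2 fold change 0.92, edgeR adjusted p = 0.47). XBP1, the factor of the IRE1 branch, was at 62.7, 70.8 and 353 CPM with the control hairpin against 355, 349 and 177 CPM under knockdown, with shDNAJC2 3 between the low and the high libraries. NFIL3 lay at 34.2, 34.9 and 75.7 CPM and at 91.1, 84.4 and 48.6 CPM. Without shCtrl 3 CEBPG rose by 1.96, XBP1 by 2.14 and NFIL3 by 1.11 (edgeR adjusted p 3.2e-04, 0.00101 and 0.00824).

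Of 40 target genes of ATF4 and DDIT3, a list drawn up with their earlier results known, 39 were tested (not FGF21), and edgeR called none. All 39 had a positive log2 fold change over 6 libraries (38 without shCtrl 1 or shCtrl 2), beside 6671 of the 13988 genes tested. Their median was 0.79. At an unadjusted p under 0.05 1 was higher, beside 4% of all genes. The groups did not overlap for 1, which was higher, beside 7.33% of all genes. Neither count was above its background share. With shCtrl 3 left out edgeR called each of the 39 higher, beside 17.8% of all genes, and the median was 2.35. ERO1A, an oxidase of the endoplasmic reticulum that DDIT3 induces, was the one under 0.05, at 88.6, 87.0 and 138.5 CPM with the control hairpin against 177, 149 and 138 CPM under knockdown (log2 fold change 0.56, unadjusted p 0.0315). XPOT, the tRNA exporter gene, was at 142, 150 and 396 CPM and at 491, 428 and 343 CPM, and EPRS1, a tRNA synthetase gene, at 146, 148 and 333 CPM and at 364, 341 and 272 CPM. SLC7A11, the cystine importer gene, was at 84.2, 75.3 and 673 CPM with the control hairpin against 826, 740 and 618 CPM under knockdown, and ALDH1L2, ASNS and PSAT1 had log2 fold changes of 1.33, 1.36 and 1.35. For XPOT, SLC7A11 and EPRS1, shDNAJC2 3 was the lowest knockdown library, but nearer to the others than for ATF3 or PPP1R15A. Of the tested targets GDF15 spanned most within the knockdown, 3.24-fold (68.7, 85.7 and 26.4 CPM), against 3.89-fold for PPP1R15A. A low value in shDNAJC2 3 was thus not particular to ATF3 and PPP1R15A. The median of the whole list relative to the mean of 6 libraries was −1.64, −1.59 and 1.01 in the controls and 0.84, 0.91 and 0.30 in the knockdown on the log2 scale.

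**Figure D4:**
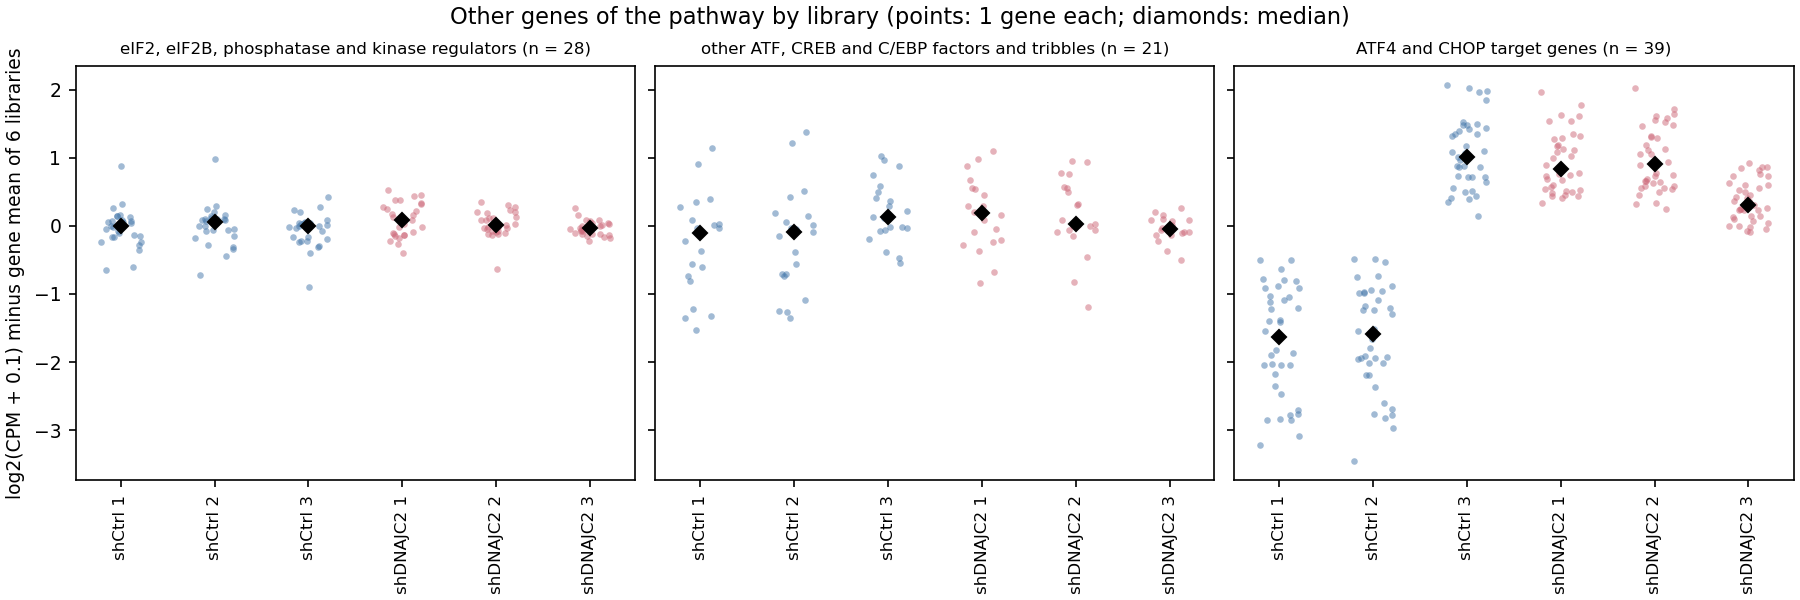
Tested genes of the 3 lists around the members by library, as log2(CPM + 0.1) minus each gene's mean of 6 libraries (points are genes, blue shCtrl and red shDNAJC2, diamonds are medians). The medians of the 28 genes of the eIF2 machinery stay near 0 in every library, and most of the 39 target genes are low in shCtrl 1 and 2 and high in the other 4 libraries.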

How the data were processed

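The authors deposited raw counts of reads per gene for 6 libraries, with no normalization, as the whole-number values and their unequal totals show. The submitters' processing notes name GRCh38 (hg38) as build; the aligner, counter, annotation release and strand setting are not given in the sources used here. Columns were matched to libraries by title. Coordinates, lengths, overlaps and GC content come from GENCODE 29 (GRCh38), matched by Ensembl identifier, with a GC value for 98.7% of the genes tested.

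The main test was that of edgeR 4.0.16 under R 4.3.3 (quasi-likelihood F test, two-sided, TMM, filterByExpr, Benjamini-Hochberg over all genes tested, threshold 0.05), with group as the only term. Intervals at 95% were computed from its F statistic. CPM use TMM library sizes, and a prior count of 2 was added for log2 CPM. The script was checked on simulated counts. Alternatives were other size factors, no filter, DESeq2 1.42.0, limma-voom (limma 3.58.1), a block for replicate number and omission of each library. The members, lists and tests were chosen with earlier results of these data known, and the lists are described by counts and medians only. Named are the members, DNAJC2, the 4 genes of each list with the smallest p and the 4 with the largest log2 fold change, EIF2AK2, EIF2S1, PPP1R15B and CEBPG, and the 4 genes nearest in pattern to ATF4, DDIT3, EIF2AK3 and CEBPB. The eIF2B genes, GDF15, the untested list genes, the markers and the overlapping genes were named after their values were seen.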

Additional observations from a re-analysis of the deposited data

How the results depend on the processing

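Other size factors, no filter on low counts, limma-voom and the replicate block called 0 genes, as did omission of any library other than shCtrl 3; at an unadjusted p under 0.05, limma-voom had 702 higher and 771 lower and the replicate block 164 and 275. DESeq2 called 6 higher and 29 lower, with no member among them. It gave neither a p nor an adjusted p for ATF3, which it could therefore not call. Of the named list genes BATF2, ASNS and PSAT1 had no adjusted p in DESeq2. When each library was left out in turn, calls ranged from 0 to 2532 higher and from 0 to 2413 lower over all genes, and from 0 to 6 higher and 0 to 1 lower among the members, with every call coming from the omission of shCtrl 3. The median log2 fold change then ranged from 0.071 to 1.22 for the members, from −0.045 to 0.062 for the eIF2 machinery and from 0.42 to 2.35 for the target genes. With total counts as size factors the median of the eIF2 machinery was −0.060. The sign of EIF2AK1 turned with total counts (−0.014), and its values without 1 library ranged from −0.035 to 0.12. EIF2AK3 turned with DESeq2 size factors (0.0061), without the filter (0.0055) and in DESeq2 (0.0050), and ranged from −0.076 to 0.068 without 1 library. CEBPB ranged from −0.13 to 0.71. The cause of these turns was not tested. Deviations from the group mean had correlations of −0.38, −0.52 and −0.66 between same-numbered libraries. Those of shCtrl 1 and 2 both went with shDNAJC2 3 (0.67 and 0.57), and those of shCtrl 3 with shDNAJC2 1 and 2 (0.37 and 0.59). Centring each group on its own mean ties these values together, so those for shCtrl 3 follow in part from the others. Since shCtrl 3 stands apart from the other controls, these values cannot show whether the replicate numbers pair the libraries. With the replicate block the members' median was 0.66 and that of the target genes 1.53, with 0 genes called. The lowest count of a member was 215, for ATF3, and the spreads between libraries include counting error, which weighs most for members with few reads such as EIF2AK3 (312 to 505 counts).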
